A study of Mus musculus with 2 samples.

Results

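The Mir297, Mir466, Mir467 and Mir669 genes are a rodent-specific expansion of microRNA (miRNA) genes. They were taken here as the rows of the deposited tables whose GENCODE M21 symbol starts with 1 of these 4 stems and has no digit right after it. The rule gave 81 of 2202 miRNA genes, namely 6 Mir297, 28 Mir466, 17 Mir467 and 30 Mir669 genes. Of the 81, 71 lie in 1 intron of Sfmbt2 on the plus strand of chromosome 2, and 10 lie elsewhere. The levels come from microRNA sequencing of total RNA in 2 libraries of 1 group, made from fragments shorter than 30 bases. Both libraries are labelled layer of hippocampus, from male B6CASTF1/J mice (first-generation hybrids of C57BL/6J and CAST/EiJ) at 25 days of age, with no treatment and no altered gene. The libraries are biological replicates 1 and 2, with separate biosamples but 1 donor entry in the labels, so the spread between them may be partly technical.

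A miRNA is cut from a hairpin in a longer transcript and guides Argonaute proteins to messenger RNAs that pair with its seed, bases 2 to 8 of the mature strand. Sfmbt2 encodes a Polycomb group protein and is imprinted, with expression from the paternal copy best known from the extraembryonic tissues of the early embryo. Its intronic miRNA array is present in rodents and is known from placenta and embryonic stem cells. Members are built of short repeats that alternate U with G or A with C, and many are near copies of each other.

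The RefSeq table (GRCm38.p6) held a mature sequence for 8 of the 81 members, all of them outside Sfmbt2, and none for Mir467d, Mir669c, Mir467e, Mir669o, Mir669l, Mir467c, Mir669e or Mir669h. The 8 sequences are shown, 5′ to 3′, for their alternating repeats, with the seed in capitals. These 3 carry a run of A alternating with C that starts within or next to the seed.
mmu-miR-466q: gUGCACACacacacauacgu
mmu-miR-467f: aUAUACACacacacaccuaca
mmu-miR-466i-3p: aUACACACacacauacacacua
These 3 carry U alternating with G within the seed.
mmu-miR-466k: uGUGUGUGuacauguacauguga
mmu-miR-466j: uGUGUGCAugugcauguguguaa
mmu-miR-467h: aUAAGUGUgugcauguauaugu
The other 2 carry such repeats in the same places. A alternates with C from the last seed base on in mmu-miR-467g, and U alternates with G within the seed of mmu-miR-669n.
mmu-miR-467g: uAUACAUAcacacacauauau
mmu-miR-669n: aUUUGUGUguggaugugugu
The longest run of A alternating with C was 12 bases in mmu-miR-466q and in mmu-miR-467f, and 11 bases in mmu-miR-466i-3p. The longest run of U alternating with G was 9 bases in mmu-miR-466k. The 8 seeds were all different, despite the shared stems. Among the 1738 mature sequences of the table, 1 other shared a seed with them, since mmu-miR-668-5p has the seed of mmu-miR-467h. The whole mature sequence of mmu-miR-467h stood in 3 annotated miRNA genes, Mir467h, Gm26303 and Gm25510, whereas each of the other 7 stood in its own gene alone. None of these 8 genes was well counted, with 1 count in each library for Mir466q and 0 for the other 7.

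Across whole annotated hairpins the same composition held. The median member had 36.5% G and C against 51.9% for the 1093 other genes with a Mir symbol. Its longest run of U alternating with G was 8 bases and its longest run of A alternating with C was 9 bases, against 4 and 3 bases for the other Mir genes. The UG dinucleotide made up 14.6% of the dinucleotides of the median member and 8.96% of those of the median other Mir gene. These traits are not particular to the 4 stems, since the 48 other miRNA genes in Sfmbt2 came close to the members. Their medians were 38.9% G and C, a UG run of 7 bases, an AC run of 8 bases and 12.7% UG dinucleotides. The 10 members outside Sfmbt2 had UG runs of 6 to 28 bases, with the longest in Mir466q, which lies in an intron of Tnik.

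The gene-assigned totals were 5183641 counts in replicate 1 and 5871233 in replicate 2. Levels are given as CPM, counts per 1000000 of these totals. A gene at 0 may have a true level of assigned reads up to the worth of 3 counts, which is 0.579 CPM in replicate 1 and 0.511 CPM in the other library, as far as counting error goes. In replicate 1 and replicate 2, a further 6059074 and 6908203 reads aligned to several places and are held apart from all gene counts, so levels of near copies are uncertain. As checks of the tissue label, the 11 neuronal marker genes summed to 32606 and 34437 CPM with 8 detected, meaning at least 10 counts in both libraries. Mir132 alone gave 14669 and 19562 CPM of these sums in replicates 1 and 2. The 14 matched genes of the embryonic stem cell and early embryo list summed to 1.54 and 1.87 CPM with none detected, and the 12 of the testis cluster of the X chromosome to 5.40 and 3.92 CPM with none detected. The oligodendrocyte, microglia and choroid plexus lists had 2 of 2, 4 of 4 and 3 of 3 genes detected. In tissue, fewer cells of a type and less RNA per cell cannot be told apart.

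Which of these genes were measured in the hippocampus? Only 8 of 81 (9.88%) had at least 10 counts in both libraries, against 20.2% of all 2202 miRNA genes and 38.8% of the other Mir genes. All 8 lie in Sfmbt2, with 3 Mir467 genes (Mir467c, Mir467d and Mir467e) and 5 Mir669 genes (Mir669c, Mir669e, Mir669h, Mir669l and Mir669o). They held 99.97% of the member counts in replicate 1 and 99.90% in replicate 2. A further 7 members had 1 to 4 counts in at least 1 library, and 66 had none in either. The minimum of 10 did not cut through a crowd, since the lowest library count of a detected member was 74 and the highest of any other member was 4.

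By assigned counts, which leave out reads aligned to several places, Mir467d (ENSMUSG00000077021.2, mm10 chr2:10507630-10507714) was the highest member, with 4850 counts in replicate 1 and 5152 in replicate 2. These are 936 and 877 CPM, a mean of 907 ± 41.1 CPM (SD, n = 2), which placed it at rank 107 of the 2202 genes. It alone held 44.5% and 46.8% of the member counts, so without it the set would hold 0.117% and 0.0998% of the gene-assigned counts in place of 0.210% (95% exact interval 0.206 to 0.214) and 0.188% (0.184 to 0.191). Each read spans a whole mature miRNA, so CPM is compared between genes without division by gene length.

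Mir669c (ENSMUSG00000076118.1, chr2:10509296-10509404) followed with 2676 and 2722 counts, or 516 and 464 CPM in replicates 1 and 2. Mir467e (ENSMUSG00000076948.2, chr2:10505721-10505807) had 1521 and 1369 counts, or 293 and 233 CPM. These 3 genes are near neighbours at the distal side of the array, and they held 82.9% and 83.9% of the member counts.

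Mir669o (ENSMUSG00000077086.1, chr2:10514300-10514395) had 888 and 1005 counts, or 171.3 and 171.2 CPM, the closest agreement of the 8. Mir669l (ENSMUSG00000076959.1, chr2:10468971-10469068) had 404 and 340 counts, or 77.9 and 57.9 CPM. Mir467c (ENSMUSG00000077049.2, chr2:10473931-10474027) had 283 and 250 counts, or 54.6 and 42.6 CPM. Both Mir669l and Mir467c lie at the proximal side of the array, and both were lower in replicate 2.

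Mir669e (ENSMUSG00000080653.1, chr2:10467495-10467613) had 197 and 90 counts, or 38.0 and 15.3 CPM, and was the member that differed most between the libraries. Mir669h (ENSMUSG00000080594.1, chr2:10518155-10518279), the last member of the array, had 85 and 74 counts, or 16.4 and 12.6 CPM. The 8 stood in the same order in both libraries, and the mean of the highest was 62.5-fold that of the lowest. Of the 7 gaps between neighbours in that order, that between Mir669e and Mir669h, at 12.2 ± 13.4 CPM (SD of the gap, n = 2), was smaller than its spread.

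**Figure D1:**
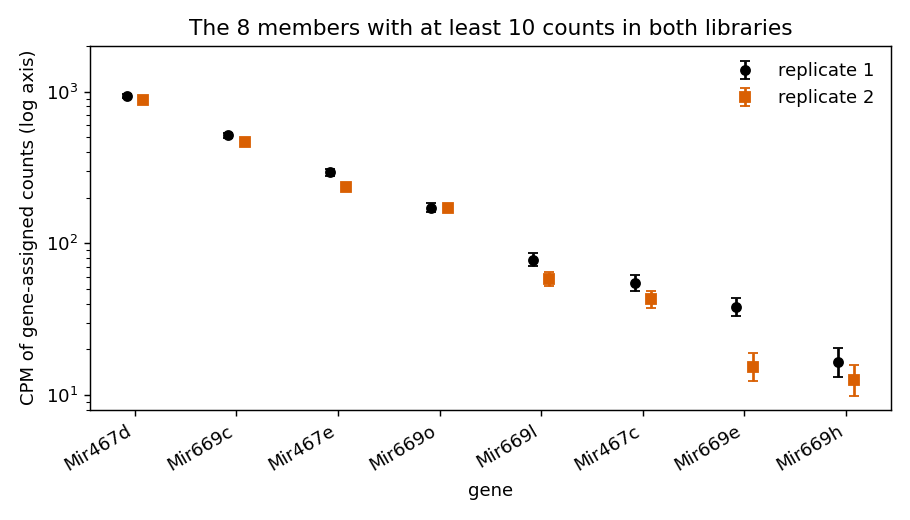
Level of each of the 8 detected members in CPM of gene-assigned counts (log axis), with circles for replicate 1, squares for replicate 2 and bars for exact 95% intervals of the counts. The order is the same in both libraries, from Mir467d at 936 and 877 CPM to Mir669h at 16.4 and 12.6 CPM, and the widest gap between libraries is that of Mir669e.

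The other stems were nearly without assigned reads. The 28 Mir466 genes had 3 counts together in replicate 1 and 4 in replicate 2, and their highest were Mir466h and Mir466q with 1 count in each library and Mir466n with 0 and 2. The 6 Mir297 genes had 0 and 2 counts, both from Mir297a-2. Of the 17 Mir467 genes, the 10 Mir467a copies had 0 counts in both libraries and Mir467b had 0 and 4, the nearest to the minimum of any member that missed it. Of the 30 Mir669 genes, 24 had 0 counts in both libraries. The 10 members outside Sfmbt2 had 1 count in each library, all from Mir466q (chr3:28419943-28420018).

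Where in the array did the counts lie? In GENCODE M21, 119 miRNA genes lie in Sfmbt2, the 71 members and 48 others, from chr2:10465287 to chr2:10518279. This stretch of 53.0 kb lies within a single intron from 10461473 to 10523944, which is intron 10 or 11 depending on the transcript. Its middle is a tandem repeat. From Mir467a-1 to Mir669a-12, over 27.5 kb, the 10 Mir467a genes follow each other with a median spacing of 2462 bases and the 10 Mir669a genes with 2457 bases. The 10 Mir467a genes have 3 distinct sequences and these 10 Mir669a genes have 2.

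Counts stood on both sides of this repeat and were almost absent within it. In replicates 1 and 2 the 16 members proximal to it summed to 170.5 and 116.3 CPM, with 3 detected. The 35 members within it summed to 0.193 and 0.681 CPM, with none detected. The 20 members distal to it summed to 1933 and 1759 CPM, with 5 detected, so the distal side held 11.3-fold and 15.1-fold the CPM of the proximal side. The longest run of neighbouring miRNA genes below the minimum held 72 genes, 38 of them members, over 30.6 kb from 10474219 to 10504773, and these 72 genes had 1 and 4 counts together. None of the 48 other miRNA genes of the array was detected, and the highest of them were Gm22072 with 4 counts in each library and Gm25263 with 4 and 1. The borders of the repeat were set by gene names after the counts had been seen, and the sides were not tested against each other.

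**Figure D2:**
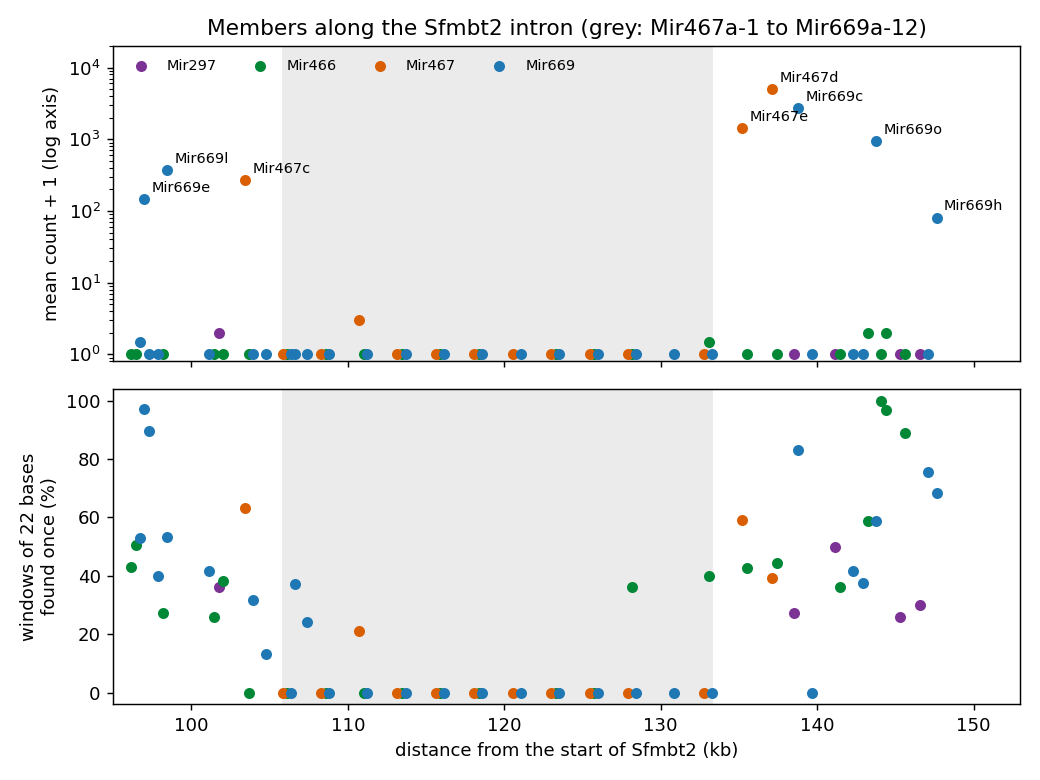
The 71 members in Sfmbt2 by distance of their start from the start of the gene (kb), with the mean count of the 2 libraries plus 1 on a log axis above and the percentage of 22-base windows found once among annotated miRNA genes below, coloured by stem. The 8 labelled genes stand on either side of the grey repeat, where 30 of 35 members have no window found once.

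How distinct are the genes that were counted? A read that fits several places is not assigned, so each hairpin was cut into all its 22-base windows, and a window was called found once when it occurred at no other place of either strand among the 2202 annotated miRNA genes. The rest of the genome was not searched. The sequences are those of mm10, and differences of the CAST/EiJ copy in these hybrid mice were not examined. Of the 81 members, 49 had a window found once and 32 had none. Of 81 members 26 share their whole annotated sequence with another gene, and 79 share a stretch of 20 bases. The median member was 95.7% identical to its nearest miRNA gene and had 31.8% of its windows found once, against 100% for the median other Mir gene.

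The 32 members without such a window had 0 counts in both libraries, which the counting rule makes likely whatever their level. They include all 10 Mir467a genes and 13 Mir669 and 9 Mir466 genes. Among the 26 members with up to 50% of windows found once, 1 was detected, and it was Mir467d. Among the 23 members above 50%, 7 were detected, or 30.4%, close to the 28.1% of all 1571 miRNA genes in that class. In the other Mir genes the same 3 classes had 0 of 17, 1 of 23 and 423 of 1053 genes detected (40.2% in the last). Among all 2202 miRNA genes, however, 2 of the genes without a window found once were detected (0.673% of them).

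Mir467d, the member with the most assigned counts, was thus among the less distinct, with 25 of 64 windows (39.1%) found once. It shares 60 bases in a row with another miRNA gene and is 92.0% identical to Mir467e. Mir669o is 92.8% identical to Mir669a-1 and had 58.7% of windows found once. Mir669e and Mir669c were the most distinct of the 8, at 96.9% and 83.0%. Of the 8, Mir467d had the lowest share and the highest assigned level, and Mir669e had the highest share at 38.0 and 15.3 CPM in replicates 1 and 2. Whether level and share are related was not tested, nor was what the reads held apart would add to each gene.

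**Figure D3:**
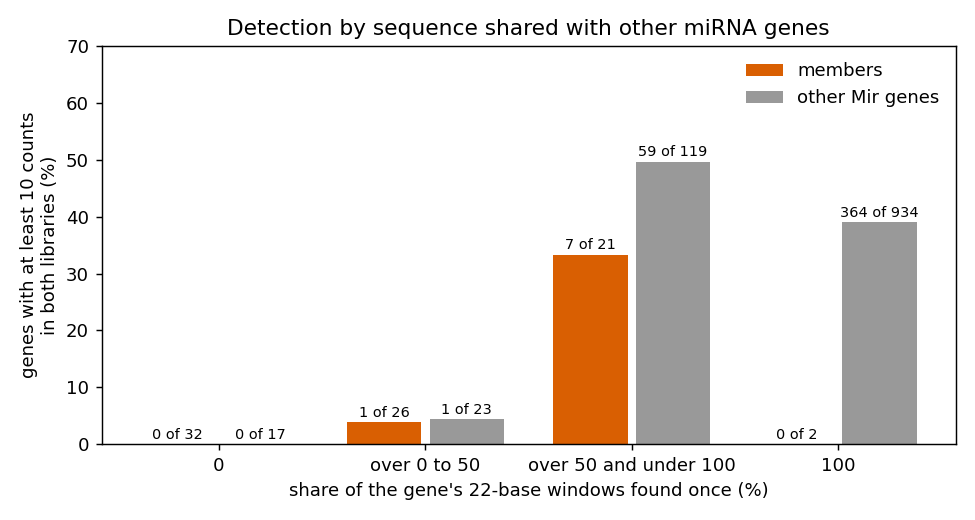
Percentage of genes with at least 10 counts in both libraries, by the share of the gene's 22-base windows found once among annotated miRNA genes, for the 81 members and the 1093 other Mir genes, with the number of genes over each bar. No gene without such a window was detected in either set, and above 50% 7 of 23 members and 423 of 1053 other Mir genes were, beside 441 of all 1571 miRNA genes in that class. The counting rule makes few counts likely without such a window, since reads that fit several places are not assigned.

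Not every member with mostly distinct windows had counts. The windows cover the whole hairpin, so where some occur elsewhere the share does not show whether the mature strand is distinct. Of the 23 members above 50%, 16 were not detected and 12 had 0 counts in both libraries. Mir466g has all 59 of its windows found once and lies 199 bases downstream of Mir669o, yet it had 0 counts in both libraries while Mir669o had 888 and 1005. Its assigned counts were therefore at least 296-fold and 335-fold lower, taking 3 counts per library as the limit that a count of 0 allows. Mir669b lies 176 bases downstream of Mir669e with 89.5% of windows found once, and at 0 its assigned counts were at least 65.7-fold lower in replicate 1 and at least 30-fold lower in replicate 2. Mir669i, 424 bases upstream of Mir669h, has 75.5% found once and had 0 counts as well. Since the rest of the genome was not searched, reads of Mir466g, Mir669b and Mir669i may fit other places too and be held apart.

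Genes at 0 also lay beside members with the most assigned counts. The gene named Mir466 lies 203 bases downstream of Mir467d and has 44.2% of windows found once, slightly more than Mir467d itself. It had 0 assigned counts in both libraries, beside 4850 and 5152 for Mir467d. Mir466p, 198 bases downstream of Mir467e, has 42.6% found once and had 0 assigned counts, beside 1521 and 1369 for Mir467e. Since most windows of Mir466 and Mir466p occur in other genes too, their reads may be among those held apart, and no fold is given. Over the 8 detected genes there were 15 pairs with the nearest member on either side, and Mir466p is paired with both Mir467e and Mir467d. In 13 of them the neighbour had 0 counts in both libraries, in 10 of these pairs it had a window found once, and in no pair was the neighbour detected too. Zeros were common in the whole array, since 57 of all 71 members in Sfmbt2 had 0 counts in both libraries.

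A second large imprinted array serves as a comparison. From Mir379 to Mir410 on chromosome 12, a miRNA array known for its expression in neurons, 34 of 38 genes (89.5%) were detected with a median of 598 CPM, against 8 of 71 (11.3%) in Sfmbt2 with a median of 120 CPM over those detected. Only 5 of the 38 share 20 bases with a miRNA gene elsewhere, and none lacks a window found once. Counts on the other strand were 0 over all 81 members in both libraries, and the column that ignores strand held the same member counts.

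How far did the 2 libraries differ at these genes? Of the 8 detected members, 6 were higher in replicate 1 and none in replicate 2, by a 2-sided exact binomial test of the counts with Benjamini-Hochberg adjustment over 472 genes. Over all 472 genes 59.7% passed, with 20.3% higher in replicate 1 and 39.4% higher in replicate 2, a split that depends on the scaling. This test compares 2 libraries by read sampling and leaves out the spread between samples. The median log2 ratio of replicate 2 over replicate 1, on CPM + 1, was -0.34 over the 8 members and 0.16 over all 472 genes, and each of the 8 lay below the latter. The 8 lie in 1 intron on 1 strand, so their shared direction cannot be counted as 8 independent results.

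Mir669e was higher in replicate 1 by 2.48-fold (95% exact interval 1.92 to 3.22, binomial adjusted p = 4.92e-13). Of 291 genes whose mean count reached 100, 22 (7.56%) lay as far from 0 or farther and 6 were as low or lower, Mir669e included. Mir467e was 1.26-fold higher in replicate 1 (1.17 to 1.35, binomial adjusted p = 1.97e-09) and Mir669l was 1.35-fold higher (1.16 to 1.56). Mir669l thus had the next widest ratio of the 8.

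The log2 ratio was -0.35 for Mir467c, -0.15 for Mir669c and -0.09 for Mir467d, which also passed the test. It was -0.35 for Mir669h (binomial adjusted p = 0.167) and 0.00 for Mir669o (adjusted p = 1), which did not. Without Mir669e the members ran from -0.42 to 0.00 with a median of -0.33. In sums, the proximal members were 1.47-fold higher in replicate 1 and the distal members 1.10-fold. Single genes overlapped between the sides, with -0.35 for the proximal Mir467c beside -0.35 and -0.33 for the distal Mir669h and Mir467e. The sides were set after the counts had been seen, and a difference between them was not tested. The median absolute log2 ratio was 0.34 for the members and 0.36 for all 472 genes.

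**Figure D4:**
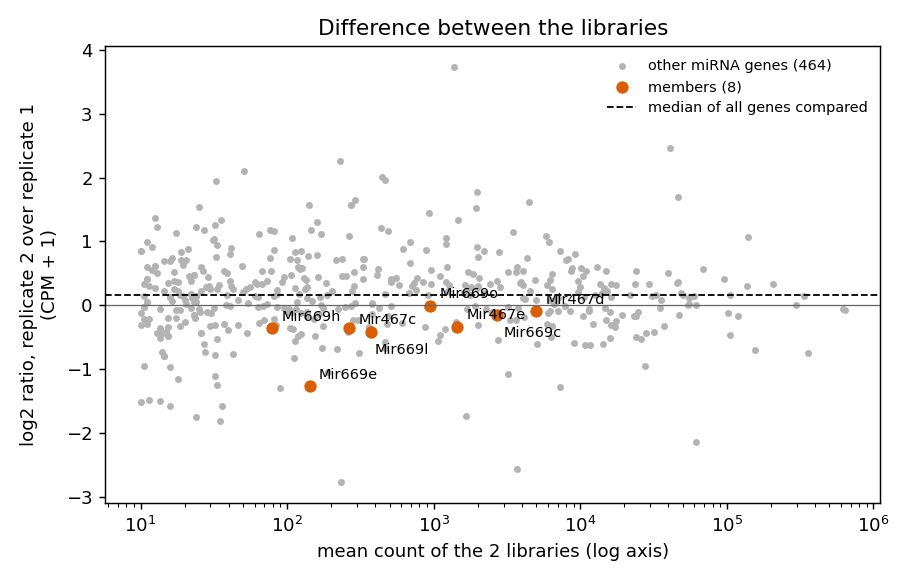
Log2 ratio of replicate 2 over replicate 1 (CPM + 1) against the mean count (log axis) for the 472 genes whose mean count reached 10, with the 8 members in orange and the median of all genes as a dashed line. The members lie between -1.26 (Mir669e) and 0.00 (Mir669o), all below the median of 0.16.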

How the data were processed

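For each library the authors deposited a table of raw counts of reads by miRNA gene, with mm10 as the build and M21 as the annotation per the text files deposited with them. Aligner and counter: not given in the sources used here. The count column on the strand of the gene was used. In replicates 1 and 2, 4 rows without a gene were left out, among them unmapped reads (14.1% and 15.5%), reads aligned to several places (43.6% and 43.2%) and reads on no feature (5.04% and 4.59%).

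Symbols, coordinates and hairpin sequences came from GENCODE M21 and mature sequences from RefSeq. Identity is 100% less the edit distance (edlib) over the longer sequence. A log2 ratio carries a pseudocount of 1 CPM. A quasi-likelihood test needs a contrast, which 1 group does not give. An exact binomial test (scipy 1.17.1) therefore compared each gene's split of counts with that of the library totals, over genes whose mean count reached 10, with calls at an adjusted p below 0.05. It was tested on simulated counts that held read sampling only, so their outcome does not cover spread between libraries. Intervals are exact Clopper-Pearson and cover counting error only, since no molecular identifiers are mentioned. TMM (edgeR 4.0.16, all gene rows) and DESeq2 1.42.0 size factors were alternatives.

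The members, lists and tests were chosen with earlier results of these data known. Genes named are all detected members, the highest of each stem and outside Sfmbt2, and the nearest to the count minimum. Neighbours of detected members, the borders of the repeat and single genes such as Mir466g were chosen after their values were seen.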

Additional observations from a re-analysis of the deposited data

Results flagged for a closer look

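The reads aligned to several places, 6059074 in replicate 1 and 6908203 in replicate 2, stand outside every gene count and are more numerous than the gene-assigned counts, at 1.17 and 1.18 per gene-assigned count. The tables do not say which genes they fit, so the share that belongs to the 32 members without a window found once was not tested. A group of 2 libraries is too small for a search for samples that stand apart, and with 1 group no difference between groups was looked for.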

How the results depend on the processing

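With reads aligned to several places added to the total, the members held 0.0916% of it in place of 0.199%. None of these reads was counted for the members, so 0.0916% is a lower limit of their share. With 1 library left out, the share was 0.188% to 0.210% and the number of detected members stayed at 8. The log2 ratio of Mir669o was 0.011 in the column without regard to strand, the only ratio to turn its sign. The count of members higher in replicate 1 stayed within 1.5 times 6, and none was higher in replicate 2, under TMM, DESeq2 size factors, other count minimums, no filter and the unstranded column. TMM scaling changed the calls over all genes from 186 higher and 96 lower to 151 and 124, and DESeq2 size factors to 138 and 139. Mir669h passed the test under both scalings and Mir669o under DESeq2 size factors. The window search over the whole genome was not run, since no genome was used here. No paired analysis was possible because there is 1 group. Counting error limits members at 0 to 0.579 and 0.511 CPM of assigned reads in replicates 1 and 2, which is no limit on the level of members whose reads fit several places.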
